A study of Mus musculus with 4 samples.

Results

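The genes described here are Hmga1, Hmga2, Igf2bp1, Igf2bp2, Igf2bp3 and Lin28b, 6 of the 32285 genes counted, listed by name as chromatin and RNA-binding genes that are active in embryos and in many tumors. They were followed in 4 single cell RNA sequencing libraries of C3H10T1/2, a mouse line used as mesenchymal progenitor cells (MPC), in cells with at least 5000 UMIs, at least 1500 genes and at most 20% of UMIs from mitochondrial (mt-) genes. A UMI is a tag that marks 1 captured RNA molecule, so a UMI count is a count of molecules. Because the Hmga genes follow cell division, each level is also given in low-cycle cells, those with at most 1 UMI summed over the cycle genes Mki67, Top2a, Cdk1, Ccnb2 and Rrm2.

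The design crosses genotype with treatment, with 1 library each for H3WT with DMSO, H3WT with 5-Aza, H3R26C with DMSO and H3R26C with 5-Aza. In all 4 libraries the Clone 8 stock of C3H10T1/2 carried a tagged human histone H3.1 cDNA, wild-type (H3WT) or with arginine 26 changed to cysteine (H3R26C), from a puromycin-selected lentiviral vector with the EF1 promoter, beside the cells' own mouse histone genes. The human transgene is not in the mouse reference used for counting, so the genotype labels were not checked here. The 5-Aza libraries were made from cells exposed for 24 h to 3 µM 5-Azacitidine, an inhibitor of DNA methyltransferases that prompts these cells to differentiate, and collected on day 28. The DMSO vehicle cells have no stated day of collection, so treatment and time in culture cannot be told apart. Of 39891 barcodes, 22049 passed the cell filter and 18106 of these were low-cycle. In the order H3WT DMSO, H3WT 5-Aza, H3R26C DMSO and H3R26C 5-Aza, which is kept below, the libraries held 3710, 5993, 4727 and 7619 kept cells, of which 89.2%, 87.6%, 86.2% and 71.8% were low-cycle.

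HMGA proteins are small chromatin proteins that bind the minor groove of AT-rich DNA and help transcription factors assemble. They are abundant in embryonic tissue, low in most adult tissue, and return in dividing progenitors and in tumors. The IGF2BP proteins bind messenger RNAs, protect them from decay and control where and when they are translated, and LIN28B blocks the maturation of let-7, a microRNA family that in turn represses Hmga2, Lin28b and the Igf2bp genes. In mesenchymal cells Hmga2 is known from benign fat and muscle tumors in which it is rearranged.

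Levels are given as CPM, the UMIs of a gene summed over the cells of a library per 1000000 UMIs of those cells, with exact Poisson 95% intervals. CPM values were compared between libraries only and not between genes. Ratios are CPM of the first named library over the second, without a pseudocount, and their exact 95% intervals, like all intervals here, cover counting error only. With 1 library per condition there is no replicate check and no test between conditions, and a gene was called past 2-fold where its ratio was at least 2 or at most 0.5 and the compared libraries held at least 50 UMIs of it together. Fewer cells that express a gene and less RNA per cell cannot be told apart in a summed level, so shares of cells are given as well.

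As a guide to what the 6 genes share outside these measurements, the let-7 sequences and the stretches of their 3′ untranslated regions (UTRs) that match the let-7 seed are shown first. The mature let-7a, let-7d and miR-98 of RefSeq (GRCm38.p6) are shown because all 3 hold the same seed, bases 2 to 8, here in capitals. Mature let-7a is encoded at chr13:48538239-48538260 (minus strand, among other loci), let-7d at chr13:48536078-48536099 (minus strand) and miR-98 at chrX:151913229-151913250 (plus strand).
let-7a-5p: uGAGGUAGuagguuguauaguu
let-7d-5p: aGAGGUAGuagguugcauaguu
miR-98-5p: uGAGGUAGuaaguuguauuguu

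The reverse complement of that seed, CTACCTC, was searched on the transcript strand of the longest annotated 3′ UTR of each protein-coding gene (GENCODE M21, GRCm38), and 8.97% of 20958 genes held it. All 6 members held it, 4 times each in Hmga2, Igf2bp1 and Lin28b, a number reached by 0.0573% of genes, and 1 time each in Hmga1, Igf2bp2 and Igf2bp3. Long UTRs hold more matches by length alone. Among genes with a 3′ UTR within 1.5-fold of the 3014 bases of Hmga2, 16.5% held a match and 0.187% held at least 4, and around the 6337 bases of Igf2bp1 these shares were 31.0% and 0.431%. Around the 1183 bases of Hmga1, 8.70% held a match, and around the 1784 bases of Igf2bp2 and the 2119 of Igf2bp3, 11.7% and 12.9% did. A match of letters is no measured binding site, and mature let-7 was not measured in these libraries. The sites of the members with measurable RNA are printed on the transcript strand with the match in capitals, since every member held at least 1 match. Each lies in the 3′ UTR of its gene.
Hmga1, chr17:27563284-27563306, plus strand: ttcacaaaCTACCTCtggacggt
Hmga2, chr10:120364217-120364239, minus strand: ttcaatttCTACCTCagcatcag
Hmga2, chr10:120362980-120363002, minus strand: cctcaataCTACCTCtgaatgct
Hmga2, chr10:120362542-120362564, minus strand: gcaaggaaCTACCTCcacacttc
Hmga2, chr10:120361684-120361706, minus strand: acacactaCTACCTCttaagtcc
Igf2bp1, chr11:95961771-95961793, minus strand: gaagtaaaCTACCTCaaggtgtg
Igf2bp1, chr11:95959350-95959372, minus strand: gctattaaCTACCTCagccccag
Igf2bp1, chr11:95958756-95958778, minus strand: tggatgaaCTACCTCagtcctca
Igf2bp1, chr11:95958133-95958155, minus strand: gttttaatCTACCTCttagcaaa
Igf2bp2, chr16:22059466-22059488, minus strand: aataaaagCTACCTCaggtgttt
Igf2bp3, chr6:49086780-49086802, minus strand: ttactcaaCTACCTCaggtattc

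The promoters of the HMGA genes and of Igf2bp2 are shown next, with their CG dinucleotides, where 5-Aza acts on methylation. These 3 genes were chosen because they differ in how their RNA moved. Sequences from RefSeq (GRCm38.p6) matched 5 of the 6 members, all but Igf2bp1. In the windows from 250 bases before to 50 after each start, Hmga1 held 40 or 38 CG at its 2 starts, Igf2bp2 47, Igf2bp3 25, Hmga2 12 and Lin28b 8, beside a median of 7 over 32851 promoters. At least as many CG were found in 3.91% of promoters for the first start of Hmga1, in 1.44% for Igf2bp2 and in 39.6% for Hmga2. The GC box GGGCGG, searched on both strands, occurred 4 times at either start of Hmga1, 2 times in Igf2bp2, 1 time in Hmga2 and not in Igf2bp3 or Lin28b, and 35.7% of promoters held at least 1. TATAAA, searched on both strands, was in none of these windows and in 13.6% of all promoters. The bases upstream of the annotated first exon are printed in the direction of transcription with CG in capitals: 173 bases with 22 CG for Hmga1 (chr17:27556324-27556496, plus strand), 250 bases with 8 CG for Hmga2 (chr10:120476470-120476719, minus strand) and 250 bases with 40 CG for Igf2bp2 (chr16:22163300-22163549, minus strand). DNA methylation was not measured in these libraries, and a link between CG content and RNA was not tested.
Hmga1: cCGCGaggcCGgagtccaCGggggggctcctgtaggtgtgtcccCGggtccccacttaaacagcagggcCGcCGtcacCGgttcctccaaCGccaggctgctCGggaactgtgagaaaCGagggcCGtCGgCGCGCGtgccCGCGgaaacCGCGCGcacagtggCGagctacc
Hmga2: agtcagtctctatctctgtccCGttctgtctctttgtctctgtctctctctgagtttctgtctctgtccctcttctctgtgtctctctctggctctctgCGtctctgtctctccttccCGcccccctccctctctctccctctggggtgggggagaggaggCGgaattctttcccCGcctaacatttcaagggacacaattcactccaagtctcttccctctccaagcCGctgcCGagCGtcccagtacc
Igf2bp2: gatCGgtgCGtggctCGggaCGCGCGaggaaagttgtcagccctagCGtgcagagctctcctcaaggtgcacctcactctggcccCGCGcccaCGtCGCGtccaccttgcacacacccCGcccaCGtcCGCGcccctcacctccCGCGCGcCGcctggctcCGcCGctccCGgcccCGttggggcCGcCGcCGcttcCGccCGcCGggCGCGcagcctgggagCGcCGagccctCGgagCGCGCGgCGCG

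The cells of every library expressed all 7 mesenchymal markers, at 10580 to 12190 CPM summed in low-cycle cells. The 13 skeletal muscle markers summed to 8.19, 2097, 9.49 and 3135 CPM and the 8 adipocyte markers to 156, 331, 231 and 175 CPM. Endothelial, blood, epithelial and pluripotent or germ cell markers summed to at most 15.7 CPM, each highest in H3R26C 5-Aza. Epithelial markers summed to 0.349, 2.44, 0.370 and 15.5 CPM and endothelial markers to 0.322, 2.92, 0.429 and 9.30 CPM. The 5 pluripotent or germ cell markers summed to 0.148, 0.507, 0.636 and 1.003 CPM. Of these, Pou5f1, the master regulator of pluripotency, was at 0 in both DMSO libraries but not in the 5-Aza libraries. No doublets were removed. The libraries shared 54 to 228 barcodes per pair, 24 to 58 of them among kept cells. The median depth of low-cycle cells was 21898.5, 12788, 16088.5 and 12106 UMIs, so shares of cells were taken after each cell was thinned to 5000 UMIs, and the share at full depth is given beside them. The low-cycle rule counts UMIs at full depth, so it was less strict in the shallower libraries.

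Hmga2 (ENSMUSG00000056758, chromosome 10, 120361275 to 120476469, minus strand), the embryonic HMGA gene, showed the widest range in low-cycle cells among the 5 genes with UMIs in every library. Its level was 2.11 CPM (1.79 to 2.46; 157 UMIs) in H3WT DMSO, 3.86 (3.42 to 4.35; 274 UMIs) in H3WT 5-Aza, 5.89 (5.32 to 6.49; 398 UMIs) in H3R26C DMSO and 37.6 (36.2 to 39.1; 2665 UMIs) in H3R26C 5-Aza. The 4 libraries thus followed each other in that order with no overlap of their counting intervals, and H3R26C 5-Aza stood far above the other three. A UMI of Hmga2 was found in 0.816% (0.538% to 1.18%), 1.54% (1.23% to 1.91%), 2.77% (2.29% to 3.32%) and 12.5% (11.7% to 13.4%) of low-cycle cells after thinning, and in 2.81%, 4.002%, 7.14% and 22.4% at full depth. No cell type in these cultures is sure to lack the gene, but the 17 adipocyte-like low-cycle cells of H3R26C 5-Aza, those with at least 3 of the 8 adipocyte markers after thinning, held 1 UMI of it at a median of 18706 UMIs per cell.

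Hmga1 (ENSMUSG00000046711, chromosome 17, 27556497 to 27563674, plus strand), the HMGA gene that stays on in many dividing cells, had the same order of libraries. In low-cycle cells its level was 11.3 CPM (10.5 to 12.1; 841 UMIs) in H3WT DMSO, 15.1 (14.2 to 16.1; 1073 UMIs) in H3WT 5-Aza, 16.8 (15.9 to 17.8; 1138 UMIs) in H3R26C DMSO and 60.0 (58.2 to 61.8; 4247 UMIs) in H3R26C 5-Aza. H3WT 5-Aza and H3R26C DMSO were neighbours whose intervals overlapped, while the other steps exceeded their counting error. After thinning 5.17%, 6.04%, 7.21% and 17.5% of low-cycle cells held a UMI, and 19.4%, 14.8%, 19.7% and 31.1% at full depth. The files also count Hmga1b (ENSMUSG00000078249, chromosome 11, 120762794 to 120764419), an intronless near-identical copy, at 3.61, 2.297, 3.37 and 6.17 CPM, 2.69-fold higher (2.24 to 3.24) in H3R26C than in H3WT after 5-Aza. With DMSO its ratio between genotypes was 0.934 (0.779 to 1.12). Its ratio of 5-Aza over DMSO was 0.636 (0.520 to 0.776) in H3WT, where Hmga1 was higher, and 1.83 (1.56 to 2.16) in H3R26C. Reads that match both copies equally well cannot be assigned to either, so the split between Hmga1 and Hmga1b is uncertain.

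Igf2bp1 (ENSMUSG00000013415, chromosome 11, 95957163 to 96005940, minus strand), an RNA-binding protein of the fetal type, differed little. Its low-cycle level was 26.6 CPM (25.4 to 27.8; 1980 UMIs) in H3WT DMSO, 22.6 (21.6 to 23.8; 1607 UMIs) in H3WT 5-Aza, 24.3 (23.2 to 25.5; 1645 UMIs) in H3R26C DMSO and 24.9 (23.8 to 26.1; 1765 UMIs) in H3R26C 5-Aza. H3WT 5-Aza lay below H3WT DMSO beyond counting error and by a narrow margin below H3R26C 5-Aza, its interval overlapped that of H3R26C DMSO, and the other 3 libraries overlapped each other. A UMI was found in 11.9%, 11.01%, 11.6% and 11.8% of thinned low-cycle cells, and in 42.5%, 25.4%, 32.2% and 26.7% at full depth.

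Igf2bp2 (ENSMUSG00000033581, chromosome 16, 22059009 to 22163299, minus strand), the family member that remains on in adult tissue, was at 32.4 CPM (31.1 to 33.7; 2411 UMIs) in H3WT DMSO, 28.6 (27.4 to 29.9; 2030 UMIs) in H3WT 5-Aza, 35.4 (34.0 to 36.9; 2395 UMIs) in H3R26C DMSO and 38.2 (36.8 to 39.7; 2705 UMIs) in H3R26C 5-Aza. Both H3R26C libraries lay above both H3WT libraries, and the 2 H3R26C libraries overlapped in their intervals by a narrow margin. After thinning 14.7%, 14.2%, 16.3% and 17.5% of low-cycle cells held a UMI, and 47.7%, 30.4%, 42.0% and 36.0% at full depth. The thinned shares put the libraries in the same order as the levels.

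Igf2bp3 (ENSMUSG00000029814, chromosome 6, 49085223 to 49214957, minus strand), the oncofetal relative, was close to the limit of detection. It had 25, 37, 19 and 26 UMIs in low-cycle cells, or 0.336, 0.521, 0.281 and 0.367 CPM, and all 4 intervals overlapped. Lin28b (ENSMUSG00000063804, chromosome 10, 45376620 to 45486395, minus strand) had 0 UMIs in the first 3 libraries and 2 UMIs in H3R26C 5-Aza, both in 1 cell. Taken as 3 counts, the limit that a count of 0 allows was 0.0403, 0.0423 and 0.0444 CPM of Lin28b in low-cycle cells of those 3 libraries, or 0.0906%, 0.0572% and 0.0736% of cells with a UMI. Its paralog Lin28a had 0 UMIs in all 4 libraries.

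**Figure D1:**
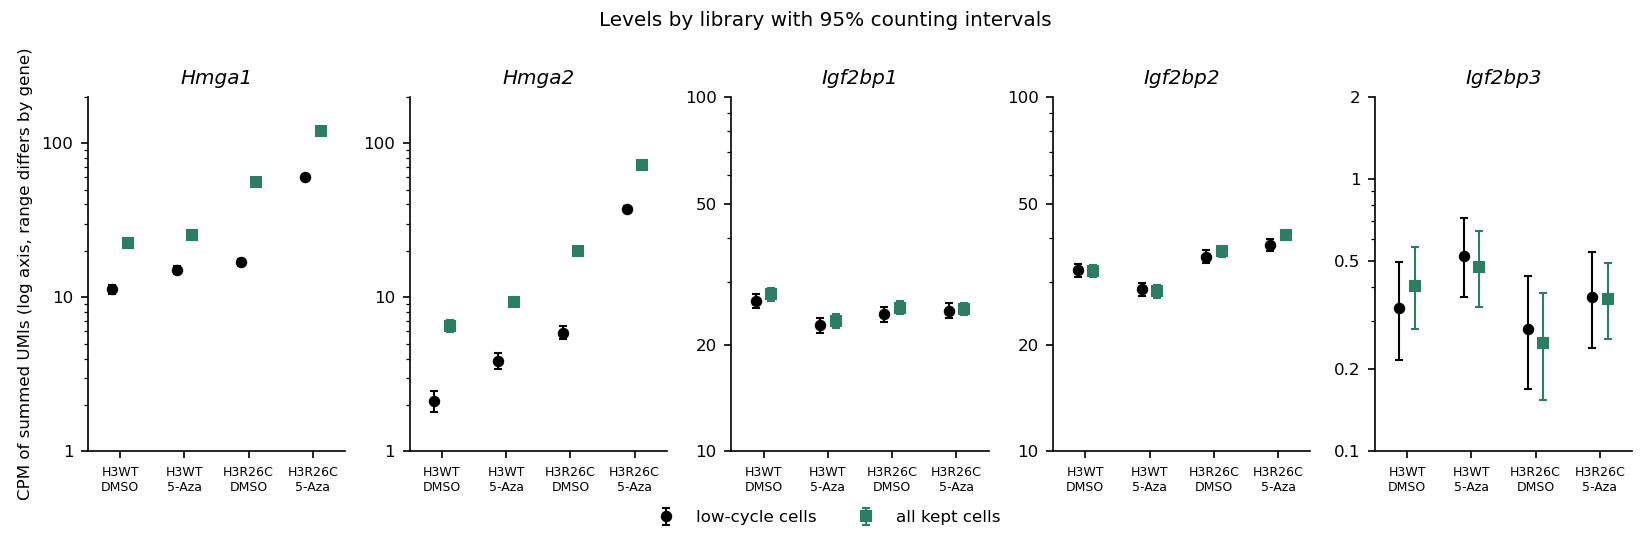
CPM of summed UMIs (log axis, with its own range for each gene) in the 4 libraries, in low-cycle cells (circles) and all kept cells (squares), with exact Poisson 95% intervals as bars. Hmga1 and Hmga2 stand highest in H3R26C 5-Aza, at 60.0 and 37.6 CPM in low-cycle cells, while Igf2bp1 stays between 22.6 and 26.6 CPM in those cells.

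The DMSO libraries compare H3R26C cells with H3WT cells that received the vehicle and no 5-Aza. In low-cycle cells Hmga2 was 2.79-fold higher in H3R26C than in H3WT (2.32 to 3.38; log2 ratio 1.48), and Hmga1 was 1.49-fold higher (1.36 to 1.63). The 1 member past 2-fold, Hmga2, was 1 of 4 with enough UMIs, where 3.45% of 13263 genes were at least 2-fold higher and 1.56% at least 2-fold lower. Igf2bp1 had a ratio of 0.915 (0.857 to 0.977) and Igf2bp2 of 1.09 (1.03 to 1.16), and for Igf2bp3 the interval ran from 0.436 to 1.58. Over all kept cells the ratio of Hmga1 was 1.32 on the log2 scale and that of Hmga2 1.63. Thus 2 of 5 members were past 2-fold, both higher, beside 3.89% of genes at least 2-fold higher. The Hmga2 ratio rested on few cells of H3WT DMSO, where the 1% of low-cycle cells with the most Hmga2 UMIs held 62.4% of them and 1 cell alone held 29. Without the top cell of each library the log2 ratio was 1.72, and without the top 1% it was 2.27. Dropping that 1% took 62.4% of the Hmga2 UMIs from H3WT DMSO and 34.9% from H3R26C DMSO, so the increase was built into the setting. In cells with 5000 to under 10000 UMIs, which held 3 UMIs of Hmga2 in H3WT and 7 in H3R26C, the log2 ratio was -0.20. In cells with 10000 to under 20000 UMIs and with at least 20000 the ratio was 4.10 and 3.63.

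After 5-Aza the genotypes lay further apart. Hmga2 was 9.75-fold higher in H3R26C than in H3WT (8.61 to 11.1; log2 ratio 3.29) in low-cycle cells, a ratio above that of 98.9% of the genes compared. Hmga1 was 3.97-fold higher (3.71 to 4.25; log2 ratio 1.99), above 96.6% of genes. These were 2 of 5 members past 2-fold, where 8.50% of 14180 genes were at least 2-fold higher and 3.93% at least 2-fold lower. Igf2bp2 had a ratio of 1.34 (1.26 to 1.42), Igf2bp1 of 1.10 (1.03 to 1.18) and Igf2bp3 of 0.704 (0.410 to 1.195). Over all kept cells the log2 ratios of Hmga1 and Hmga2 were 2.25 and 2.94, again 2 of 5 members beside 9.27% of genes at least 2-fold higher. In cells of 5000 to under 10000, of 10000 to under 20000 and of at least 20000 UMIs, Hmga2 was 13.3-fold, 9.92-fold and 7.92-fold higher and Hmga1 3.64-fold, 4.11-fold and 3.89-fold higher.

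Over the low-cycle cells of H3WT as a whole no member reached 2-fold between 5-Aza and DMSO. In low-cycle cells Hmga2 had a log2 ratio of 0.87 (0.59 to 1.17), Hmga1 of 0.42 (0.29 to 0.55), Igf2bp1 of -0.23 (-0.33 to -0.14), Igf2bp2 of -0.18 (-0.26 to -0.09) and Igf2bp3 of 0.64 (-0.14 to 1.43). None of 5 members was past 2-fold, where 8.08% of 13719 genes were at least 2-fold higher and 0.933% at least 2-fold lower. Over all kept cells none of 5 was past 2-fold either, beside 8.14% of genes at least 2-fold higher. The share at least 2-fold lower was not counted over all kept cells. Hmga2 lay close to the limit, with a log2 ratio of 1.03 for the mean of per-cell CPM and of 1.14 without the cell of each library that held the most Hmga2. In cells with 10000 to under 20000 UMIs Hmga2 was 3.16-fold higher with 5-Aza and in cells with at least 20000 UMIs 2.26-fold higher, both past 2-fold. In cells with under 10000 UMIs its log2 ratio was -0.44, from 3 UMIs in 1 cell of H3WT DMSO, and Hmga1 was 2.14-fold higher there, from 5 UMIs in H3WT DMSO.

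In H3R26C cells 5-Aza came with the widest differences between treatments. Hmga2 was 6.40-fold higher with 5-Aza than with DMSO in low-cycle cells (5.76 to 7.13; log2 ratio 2.68) and Hmga1 3.57-fold higher (3.34 to 3.81; log2 ratio 1.83). These were 2 of 4 members past 2-fold, where 13.2% of 13986 genes were at least 2-fold higher and 4.77% at least 2-fold lower. Igf2bp1 had a log2 ratio of 0.04 (-0.06 to 0.13) and Igf2bp2 of 0.11 (0.03 to 0.19). Over all kept cells the log2 ratios of Hmga1 and Hmga2 were 1.10 and 1.84, 2 of 5 members past 2-fold beside 13.6% of genes at least 2-fold higher. The 2 treatment comparisons share no library with each other, and in low-cycle cells the log2 ratio of H3R26C minus that of H3WT was 1.80 for Hmga2, 1.41 for Hmga1, 0.29 for Igf2bp2 and 0.27 for Igf2bp1. With 1 library for each condition these differences were not tested.

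**Figure D2:**
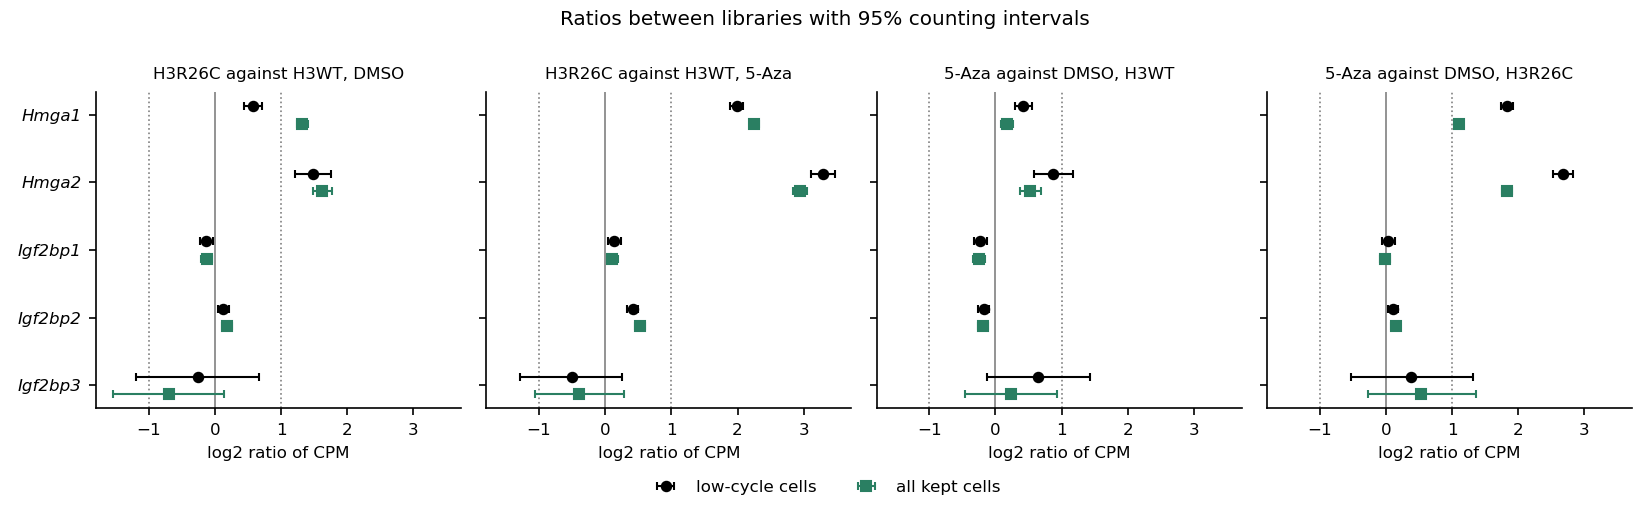
Log2 ratio of CPM for 5 members in the 4 comparisons, in low-cycle cells (circles) and all kept cells (squares), with exact 95% counting intervals as bars and dotted lines at 2-fold. Hmga2 reaches 3.29 and Hmga1 1.99 between genotypes after 5-Aza, and Igf2bp1 and Igf2bp2 stay inside the dotted lines in all 4 panels.

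Both HMGA genes were more abundant in cells above the cycle limit. Hmga1 was at 89.2, 78.9, 217 and 227 CPM and Hmga2 at 33.0, 38.6, 78.6 and 133 CPM in those cells, in the same order of libraries. The cells above the limit made up 10.8%, 12.4%, 13.8% and 28.2% of kept cells and held 56.8%, 49.6%, 75.8% and 68.1% of the Hmga1 UMIs, and 72.3%, 65.3%, 76.4% and 66.5% of the Hmga2 UMIs. Igf2bp1 and Igf2bp2 had 17.7% to 36.8% and 13.95% to 40.1% of their UMIs there. Cells above the limit were also deeper, at medians of 28679.5, 17157, 24742 and 17690 UMIs, so they held more of all UMIs than their share of cells. In H3R26C 5-Aza they held 39927224 of 110712425 UMIs. Igf2bp2 was at 32.4 CPM in cells with 0 to 1 cycle UMIs and in cells with over 10 in H3WT DMSO, and at 28.6 and 27.3 CPM in H3WT 5-Aza. It was higher beyond counting error with over 10 cycle UMIs in both H3R26C libraries, at 42.9 against 35.4 CPM in H3R26C DMSO and 45.7 against 38.2 CPM in H3R26C 5-Aza. Igf2bp1 was higher beyond counting error with over 10 than with 0 to 1 cycle UMIs in H3WT DMSO, at 42.4 against 26.6 CPM. The same held in H3WT 5-Aza, at 32.1 against 22.6 CPM, and in H3R26C DMSO, at 32.7 against 24.3 CPM. In H3R26C 5-Aza it was at 26.5 against 24.9 CPM, with overlapping intervals. In cells with over 10 cycle UMIs Hmga1 was at 177, 99.5, 270 and 262 CPM, so that H3R26C with DMSO was as high as H3R26C with 5-Aza, unlike in low-cycle cells. Hmga2 was at 66.1, 57.1, 97.3 and 151 CPM in the same cells. With 2 to 10 cycle UMIs the libraries were spread most widely, at 5.20, 18.9, 43.6 and 111 CPM for Hmga2 and 15.8, 57.1, 118 and 186 CPM for Hmga1.

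**Figure D3:**
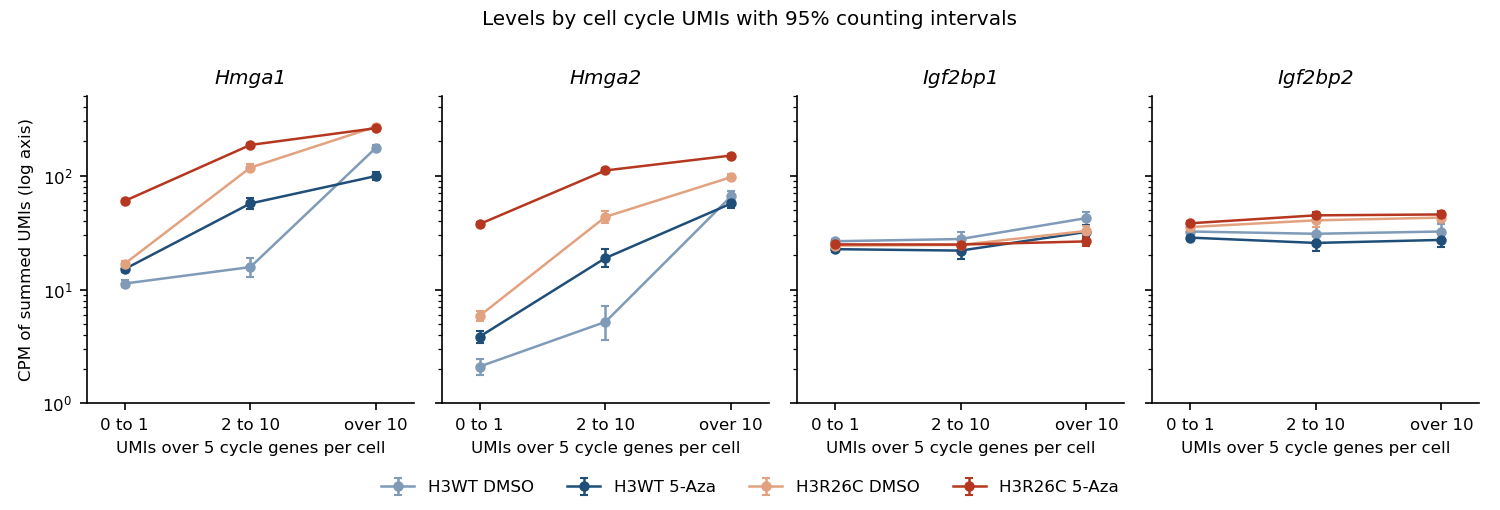
CPM of summed UMIs (log axis) of 4 members by the number of UMIs over 5 cycle genes per cell, 1 line per library, with exact Poisson 95% intervals. Hmga1 and Hmga2 increase from left to right in every library, from 37.6 to 151 CPM for Hmga2 in H3R26C 5-Aza. Igf2bp2 stays between 25.7 and 45.7 CPM. Igf2bp1 ranges from 22.0 to 42.4 CPM and is higher at the right end than at the left end in every library, within counting error in H3R26C 5-Aza.

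The UMIs of the HMGA genes were concentrated in few cells. In low-cycle cells the 1% of cells with the most UMIs of Hmga2 held 62.4%, 42.7%, 34.9% and 20.8% of them, while the figures for Hmga1 were 19.1%, 22.5%, 21.9% and 19.7% and those for Igf2bp1 7.02% to 8.71%. Such a share also rises as a gene gets rarer, and Igf2bp3, with at most 2 UMIs per cell, had 100% in every library. The order of the libraries for Hmga2 is therefore no measure of concentration. At like counts in H3R26C 5-Aza, Hmga2 (2665 UMIs) had 20.8% and Igf2bp2 (2705 UMIs) 7.91%. Cells with at least 5 UMIs of Hmga2 at full depth numbered 2 of 3310, 2 of 5248, 7 of 4076 and 133 of 5472, and for Hmga1 they numbered 9, 13, 19 and 223. No low-cycle cell had more than 7 UMIs of Igf2bp1 or Igf2bp2, against 37 of Hmga1 and 29 of Hmga2. Counting intervals do not cover this spread between cells.

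**Figure D4:**
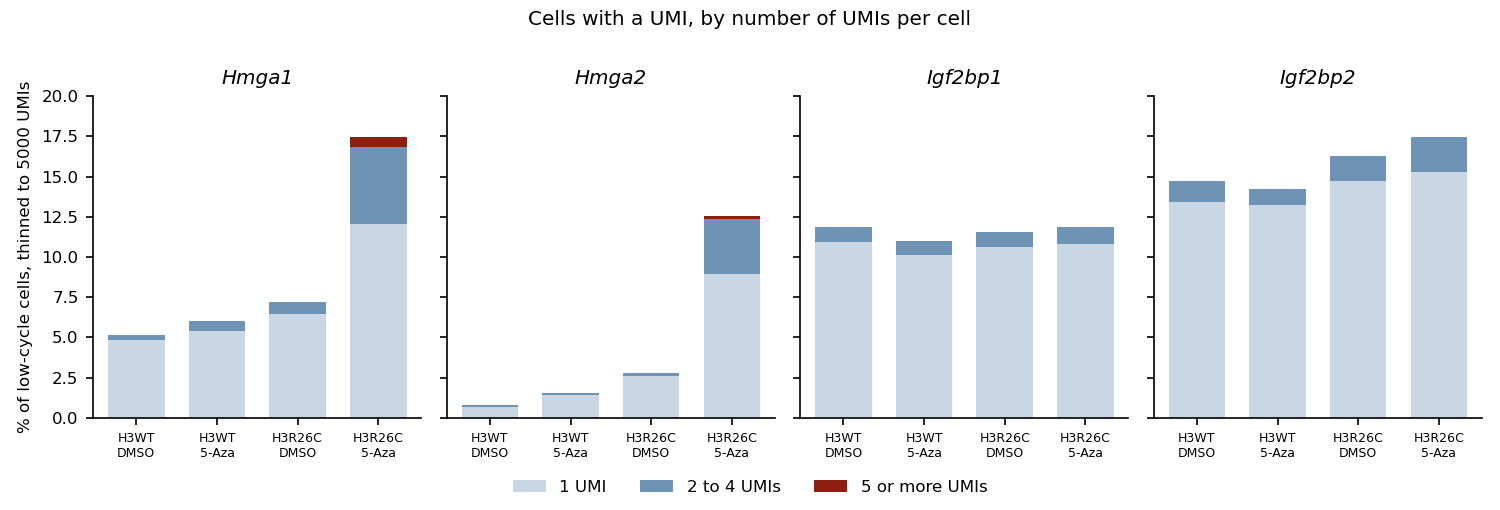
Share of low-cycle cells with 1, 2 to 4 or at least 5 UMIs of 4 members after each cell was thinned to 5000 UMIs, stacked, for the 4 libraries. In H3R26C 5-Aza 17.5% of cells hold a UMI of Hmga1 and 12.5% of Hmga2, 3.399% of its cells hold 2 to 4 UMIs of Hmga2, and the bars of Igf2bp1 are of like height in the 4 libraries.

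In the low-cycle cells of every library Hmga1 was higher at full depth in cells with a UMI of Hmga2 than in cells without. It was at 39.1, 59.2, 44.7 and 150 CPM with Hmga2 and at 10.3, 12.9, 14.4 and 31.3 CPM without. In both 5-Aza libraries Hmga1 was also found in a larger share of thinned cells with Hmga2 than without it. After thinning, 43.9% (40.1% to 47.7%) of the 686 low-cycle cells of H3R26C 5-Aza with Hmga2 also held Hmga1, against 13.7% (12.7% to 14.7%) of those without. In H3WT 5-Aza these shares were 16.0% (8.83% to 25.9%) and 5.88% (5.26% to 6.56%). In H3R26C DMSO they were 11.5% (6.27% to 18.9%) and 7.09% (6.31% to 7.93%), and in H3WT DMSO, with 27 Hmga2 cells, 7.41% and 5.15%, and in both the intervals overlapped. Igf2bp2 was in 24.9% (21.7% to 28.3%) of Hmga2 cells and 16.4% (15.4% to 17.5%) of the others in H3R26C 5-Aza. In the other libraries its intervals overlapped. Its shares with and without Hmga2 were 11.1% and 14.7% in H3WT DMSO, 14.8% and 14.2% in H3WT 5-Aza, and 21.2% and 16.1% in H3R26C DMSO. Igf2bp1 was in 12.8% and 11.7% of these cells of H3R26C 5-Aza, a difference within counting error. Full-depth levels of Igf2bp2, given without intervals, were higher in cells with Hmga2 in every library. They were 47.0, 33.4, 49.3 and 49.1 CPM with Hmga2 and 31.9, 28.4, 34.2 and 34.7 CPM without. Those of Igf2bp1 were 34.4, 29.3, 23.5 and 26.1 CPM with Hmga2 and 26.3, 22.3, 24.4 and 24.5 CPM without, lower with Hmga2 only in H3R26C DMSO. At full depth the low-cycle cells with Hmga2 had 83.0, 88.8, 95.4 and 103 CPM of 10 further cycle genes summed. Cells without it had 67.2, 71.2, 73.3 and 75.3 CPM. This residual cycle RNA was thus higher with Hmga2 in every library, and it rose in the same order of libraries as the level of Hmga2. The part of this RNA in the result was not tested. Median depth was 12895.5 and 11866 UMIs and the median mt- share 2.50% and 2.81% in H3R26C 5-Aza cells with and without Hmga2.

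Muscle-like cells, those with at least 1% of UMIs from the 13 muscle markers, also carried the difference between genotypes. The 135 low-cycle muscle-like cells of H3WT 5-Aza had 3 UMIs of Hmga2 (1.56 CPM) and 21 of Hmga1 (10.9 CPM), and the 185 of H3R26C 5-Aza had 64 UMIs of Hmga2 (18.7 CPM) and 100 of Hmga1 (29.2 CPM). Igf2bp1 was at 22.3 and 17.2 CPM and Igf2bp2 at 31.2 and 33.0 CPM in these cells. The DMSO libraries held no such cell. Without muscle-like and adipocyte-like cells the log2 ratio of Hmga2 between genotypes after 5-Aza was 3.30, against 3.29 with them. Cells that after thinning held a UMI of both Msln, which encodes mesothelin, and Cd34, a surface marker of stem and stromal cells, numbered 63 among low-cycle cells of H3R26C 5-Aza and had 181 CPM of Hmga2 and 259 CPM of Hmga1. These 63 were part of 130 such kept cells, the rest being above the cycle limit. H3WT 5-Aza held 1 such cell, low-cycle, with 3 UMIs of Hmga2 and 19 of Hmga1, and neither DMSO library held one. Without the Msln and Cd34 cells the log2 ratio of Hmga2 between genotypes after 5-Aza was 3.23.

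The genes whose levels were most like Hmga2 were sought over 12 sums, the 4 libraries each cut into cells with 0 to 1, 2 to 10 and over 10 cycle UMIs, by Pearson's r of log2(CPM + 1) among 9829 genes with at least 10 CPM in 1 or more sums. The 12 sums share libraries and cell cycle strata, so the values are a description. Fosl1, which encodes an AP-1 transcription factor, came first (r = 0.991), and Spn (0.988), a sialic acid-rich surface protein, Hmga1 (0.984) and Tcirg1 (0.983), a subunit of the vacuolar proton pump, were also among the 5 most alike. Hmga1 ranked 4 of 9829, and by the same measure Hmga2 ranked 1 of 9829 for Hmga1. Igf2bp2 ranked 2622 (r = 0.577) and Igf2bp1 3474 (r = 0.386).

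Genes on the opposite strand overlap 4 of the members. Gm49774, an antisense gene that overlaps the start of Hmga1, had 73, 72, 57 and 213 UMIs in low-cycle cells, and between genotypes after 5-Aza it was 2.97-fold higher (2.26 to 3.93). The antisense RNA 1700006J14Rik, which overlaps the 3′ end of Hmga2, had 8, 31, 19 and 67 UMIs. The protein-coding neighbours did not follow, as AI413582, whose end overlaps that of Hmga1, was at 102, 110, 111 and 93.2 CPM and Malsu1, at the end of Igf2bp3, at 50.8, 63.7, 58.6 and 68.3 CPM. Counting by Cell Ranger uses the strand of each read.

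The let-7 pathway was described by 12 further genes that process let-7 or act with LIN28, of which 10 had enough UMIs in each comparison. In all 4 comparisons 0 of 10 were past 2-fold in low-cycle cells, where the shares of all genes at least 2-fold higher were 3.45%, 8.50%, 8.08% and 13.2%, in the order in which the comparisons are given above. The shares of all genes at least 2-fold lower were 1.56%, 3.93%, 0.933% and 4.77%. Tut7, a uridylyltransferase that tags precursor let-7, was at 101, 100, 99.1 and 84.9 CPM, and Ago2, the protein that holds microRNAs, at 71.7, 65.0, 73.5 and 73.0 CPM. Tut4, a second enzyme of that kind, was at 45.1, 47.3, 43.2 and 46.2 CPM. Mir99ahg, a host transcript of a let-7 cluster, was at 131, 85.3, 110 and 57.7 CPM, the lowest in H3R26C 5-Aza. The median log2 ratio of the list ran from -0.29 to -0.06 over the 4 comparisons, beside -0.03 to 0.04 over all genes.

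Of 23 other known let-7 targets 21 had enough UMIs, and 0 of 21 were past 2-fold in any of the 4 comparisons. With the shares over all genes just given, few genes of a list of this size would be past 2-fold, and the list was not tested. The cyclins Ccnd2, at 235, 167, 179 and 89.6 CPM, and Ccnd1, at 154, 167, 160 and 195 CPM, had the most UMIs with Igf1r, the receptor of insulin-like growth factors, at 71.7, 72.2, 85.5 and 75.2 CPM. Ccnd2 was thus lowest and Ccnd1 highest in H3R26C 5-Aza. The median of the list was between -0.10 and 0.01.

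The other high mobility group genes encode chromatin proteins of different folds, and 0 of 7 were past 2-fold in each comparison. Over all genes 3.45%, 8.50%, 8.08% and 13.2% were at least 2-fold higher and 1.56%, 3.93%, 0.933% and 4.77% at least 2-fold lower. Few of 7 genes would be past 2-fold at these shares, and the list was not tested. Hmgn1 was at 588, 646, 651 and 681 CPM, Hmgb1 at 255, 252, 264 and 240 CPM, Hmgn2 at 159, 136, 180 and 121 CPM and Hmgn3 at 47.4, 69.2, 52.8 and 59.7 CPM. The median log2 ratio of these genes ran from -0.07 to 0.15.

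The RNAs known to be bound by IGF2BP proteins included 2 of 5 past 2-fold in each comparison, and the fetal growth genes included 3 of 7, 3 of 8, 4 of 8 and 3 of 8 that were higher, in the same order of comparisons, and 1 that was lower. Over all genes 3.45%, 8.50%, 8.08% and 13.2% were at least 2-fold higher, and lists this short were not tested. H19, an imprinted RNA of fetal growth, and Igf2, the growth factor that gave the IGF2BP family its name, were on both lists. The counts of the lists therefore share genes and are not separate results. H19 was past 2-fold in every comparison, at 37.8, 120, 90.2 and 306 CPM. Igf2 was at 14.3, 57.1, 31.3 and 57.2 CPM, which is past 2-fold between genotypes with DMSO and between treatments in H3WT. Cd44, a hyaluronan receptor, was at 12.3, 22.3, 19.4 and 48.5 CPM and was past 2-fold in both comparisons that involve H3R26C 5-Aza. Actb, the classic IGF2BP1 target, was at 3936, 3553, 4250 and 3504 CPM and Myc at 41.0, 32.7, 27.6 and 24.1 CPM, neither past 2-fold. The median log2 ratio of the 5 IGF2BP-bound RNAs was 0.65, 0.00, 0.86 and 0.87 over the comparisons, and that of the fetal growth genes 0.12, 0.09, 1.23 and 0.56.

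The imprinted fetal growth genes Peg3 and Mest were also past 2-fold, from few UMIs with DMSO. Peg3 had 15, 150, 5 and 1053 UMIs and Mest 4, 300, 102 and 759. Peg3 was at 0.201, 2.11, 0.0739 and 14.9 CPM and Mest at 0.0537, 4.23, 1.51 and 10.7 CPM. Dlk1, a membrane protein that holds back fat cell formation, was at 62.8, 108, 34.5 and 35.9 CPM. It was the 1 gene of the list at least 2-fold lower in H3R26C than in H3WT after 5-Aza, where Peg3 and Mest were higher. Grb10 was at 137, 159, 131 and 114 CPM and Igf2r at 89.7, 95.1, 89.9 and 107 CPM. Of the Ink4 genes, which encode inhibitors of cyclin-dependent kinases, Cdkn2c was at 74.0, 74.4, 54.8 and 67.0 CPM and Cdkn2d at 19.9, 26.3, 24.4 and 31.6 CPM, 0 of 2 past 2-fold, with medians from -0.07 to 0.33. At the shares over all genes given above, 2 genes are too few to read a result from this count. Cdkn2a had 0 UMIs in both H3WT libraries and was at 0.0444 and 0.396 CPM in H3R26C with DMSO and with 5-Aza, and Cdkn2b was at 0.170 CPM in H3R26C 5-Aza and at 0 in the others.

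**Figure D5:**
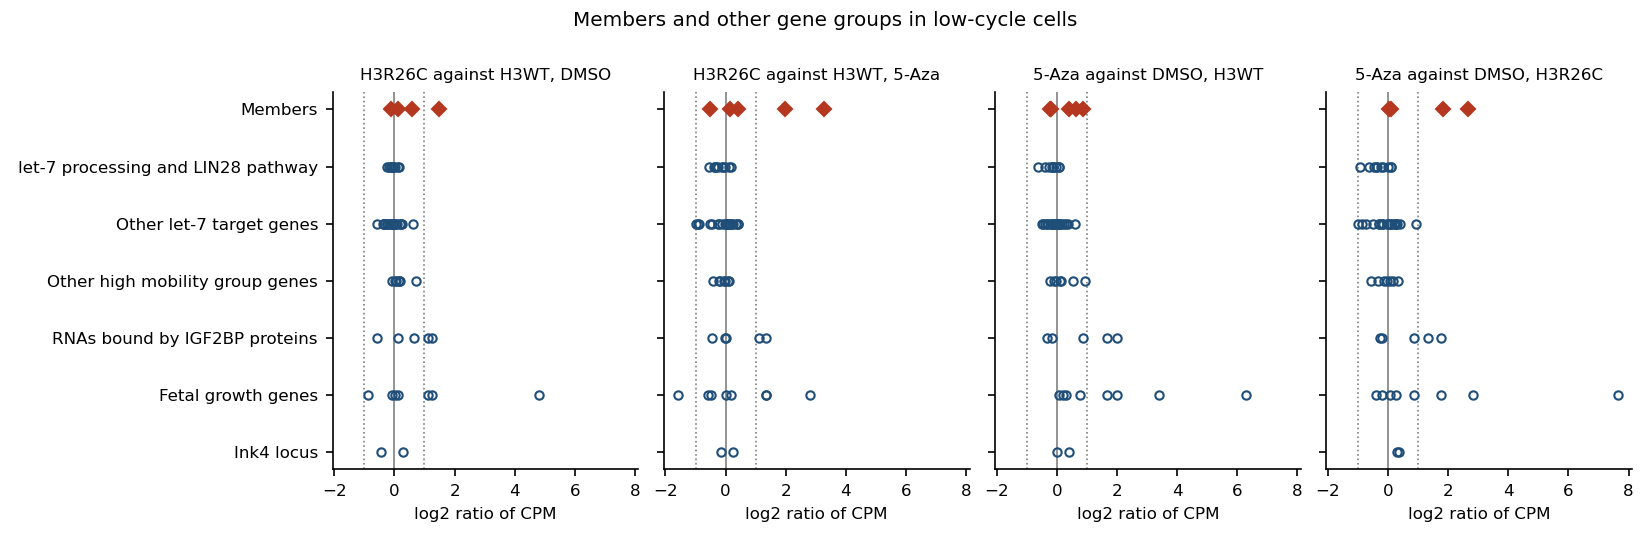
Log2 ratio of CPM in low-cycle cells for the members (filled diamonds) and the genes of 6 further lists (open circles) with at least 50 summed UMIs, for the 4 comparisons, with dotted lines at 2-fold. Only the rows of the members, the IGF2BP-bound RNAs and the fetal growth genes hold points beyond the dotted lines. The rows hold unlike numbers of genes, and no row was tested.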

How the data were processed

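C3H10T1/2 cells were profiled by 10x Genomics single cell RNA sequencing, 1 library per condition. The deposited matrices hold raw UMI counts per gene and barcode, which the authors made with Cell Ranger 6.1.0 (per the file headers; the labels also name Seurat 4) against an mm10 reference, filtered for cell-containing barcodes and without normalization. Of the columns used, 0 were left without a sample. Barcodes with at least 5000 UMIs, 1500 genes and at most 20% mt- UMIs were kept, no doublets were removed, and UMIs were summed per library with Python 3.11.15, numpy 2.4.6, scipy 1.17.1 and pandas 2.3.3. Kept cells held 84060490 to 110712425 UMIs per library, and the floor of 3 counts was 0.0403 to 0.0444 CPM in low-cycle cells. Poisson, binomial and Clopper-Pearson intervals are exact at 95% and cover counting error only. Thinning used a fixed seed, and the ratio code was tested on simulated data. The genes named are the 6 members, up to 4 genes per list with the most UMIs plus those past 2-fold, and the 5 genes most like Hmga2, of which some are not reported here. Members and lists were chosen with earlier results of these data known. RefSeq (GRCm38.p6) gave miRNAs and promoters and GENCODE M21 (GRCm38) gave gene positions and UTRs. Other normalizations, UMI minimums, cycle rules, depths and cell sets were tried as alternatives.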

Additional observations from a re-analysis of the deposited data

Results flagged for a closer look

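The ratio of 5-Aza over DMSO for Igf2bp2 had opposite signs in the 2 genotypes. The log2 ratio of 5-Aza over DMSO was -0.18 in H3WT and 0.11 in H3R26C in low-cycle cells, and -0.19 and 0.15 in all kept cells. For Igf2bp1 the log2 ratio of H3R26C over H3WT was -0.13 with DMSO and 0.14 with 5-Aza in low-cycle cells, and -0.12 and 0.11 in all kept cells. By depth the Igf2bp2 log2 ratio in H3R26C was 0.07 and 0.08 in cells with 5000 to under 10000 and 10000 to under 20000 UMIs. In cells with at least 20000 UMIs it was -0.02, the sign of H3WT. For Igf2bp1 the signs were alike in cells with under 10000 UMIs (0.17 with DMSO, 0.23 with 5-Aza) and with at least 20000 (-0.17 and -0.03). These differences in sign were not tested, since each condition has 1 library. Treatment and time in culture cannot be told apart.

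The barcodes left out by the cell filter also held HMGA RNA. In the left-out barcodes of H3R26C 5-Aza Hmga1 was at 109 CPM and Hmga2 at 75.6 CPM. All kept cells of that library had 120 and 71.9 CPM. The left-out barcodes of H3WT DMSO, H3WT 5-Aza and H3R26C DMSO had 24.3, 17.9 and 48.0 CPM of Hmga1, against 22.4, 25.2 and 56.0 CPM in all kept cells. They had 1.31, 4.16 and 8.91 CPM of Hmga2, from 4, 38 and 18 UMIs, against 6.52, 9.37 and 20.1 CPM.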

How the results depend on the processing

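No paired analysis was possible because there are no replicates to pair, with 1 library for each combination of genotype and treatment. Each count of members past 2-fold was recomputed under 18 alternatives, 6 of them chosen after seeing the data (without the top cells of a member, without Msln and Cd34 cells, and by depth). Of these 72 counts 62 were unchanged. For H3R26C against H3WT with DMSO the count of 1 became 2 with all kept cells and 0 in cells with under 10000 UMIs. There both HMGA genes fell short of the 50 UMIs needed. Hmga2 had 3 UMIs in H3WT and 7 in H3R26C (log2 ratio -0.20), and Hmga1 had 5 and 31 (2.32-fold higher in H3R26C). For 5-Aza against DMSO in H3WT the count of 0 became 1 under 8 alternatives, namely the mean of per-cell CPM, 0 cycle UMIs, at most 2 UMIs over 15 cycle genes, without the cell or the 1% of cells with the most UMIs of the member, and each of the 3 depth ranges. The cause was not tested. Hmga2 kept its direction and its side of 2-fold after 5-Aza between genotypes (log2 ratio 2.94 to 3.75) and in H3R26C between treatments (1.84 to 3.48). Hmga1 ranged over 1.86 to 2.25 and 1.10 to 1.96. The 3.75 came from leaving out the 1% of cells with the most Hmga2, which removes a larger part of its UMIs where it is rarer. The same holds for that setting among the 8 above. Igf2bp1 changed sign in 1 to 3 alternatives of each comparison, and Igf2bp2 in 1, for 5-Aza in H3R26C (-0.02 in cells with at least 20000 UMIs). With a minimum of 20 summed UMIs the share of all genes at least 2-fold lower was 2.40% between genotypes with DMSO and 1.64% with 5-Aza in H3WT. With a minimum of 200 the shares higher and lower were 2.24% and 0.896%, and 5.11% and 0.502%. Depth limited Igf2bp3 and Lin28b, whose UMIs were too few to rank the libraries.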
